A study of Gallus gallus with 18 samples.

Results

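The genes described here had higher mean levels in the hen uterus when shell calcification began than in every later group that was used to choose them. They are 100 of the 17108 Ensembl loci in a table of 20866 loci, and the files give identifiers without gene names. Levels are CPM, each count divided by the total of its library and multiplied by 1000000. A gene was considered if its median over 18 libraries was below 1000 CPM and its low strength termination mean lay between 0.67 and 1.5 times its low strength growth mean, which left 6598 loci. The members were then chosen by a score of measured levels. The score was the log2 of the lower of both initiation means over the highest of the high growth, low growth and low termination means, with 1 CPM added to each, and the 100 highest scores were taken. The 3 high strength termination libraries took no part in the score or in the low termination condition. They entered the median alone.

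The libraries hold uterine RNA of Hy-Line Brown layers, a commercial brown-egg strain, at 42 weeks of age. The samples came from hens laying hard shells (high strength) or weak shells (low strength), taken at the initiation, growth or termination of calcification, with 3 libraries in each of the 6 groups. The labels name no treatment. Nothing in them says which hen gave which library, and each p-value therefore reflects the scatter of libraries, part of which may be technical. Totals ran from 13322102 to 16125109 counts per library. In 3 of the groups 1 library seldom lay between the other 2 over all 16110 loci tested. Low initiation replicate 3 was the lowest of its group at 60.6% of loci and the highest at 28.4%, high termination replicate 3 at 51.7% and 37.1%, and low termination replicate 1 at 24.3% and 62.8%. Without gene names the tissue could not be checked against its markers, nor could those of other cell types be read.

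The uterus, or shell gland, secretes the fluid from which calcium carbonate crystallises onto the membranes of the forming egg. At initiation the first crystals form on the outer shell membrane, during growth the bulk of the shell is laid down rapidly, and at termination mineral deposition stops and the organic cuticle is added. The secreted fluid carries calcium and bicarbonate moved by the epithelium, and proteins that become the organic matrix of the shell. In RNA from whole tissue, fewer cells of a type and less RNA per cell cannot be told apart.

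The genes were lowered after initiation, but most were far from switched off. Over the 100 genes the group means had medians of 41.1 and 41.0 CPM in high and low initiation, and of 11.5, 11.0 and 11.4 CPM in high growth, low growth and low termination. The lower initiation mean exceeded the highest of these 3 later means by a median of 2.28-fold over the 100 genes, with a range from 1.88 to 13.6. This ratio was above 4 for 9 genes and below 2 for 19. The number of genes with a mean below 1 CPM was 0 in both initiation groups, 5 and 6 in high and low growth, and 4 in low termination. These values chose the genes and are given as a description.

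**Figure D1:**
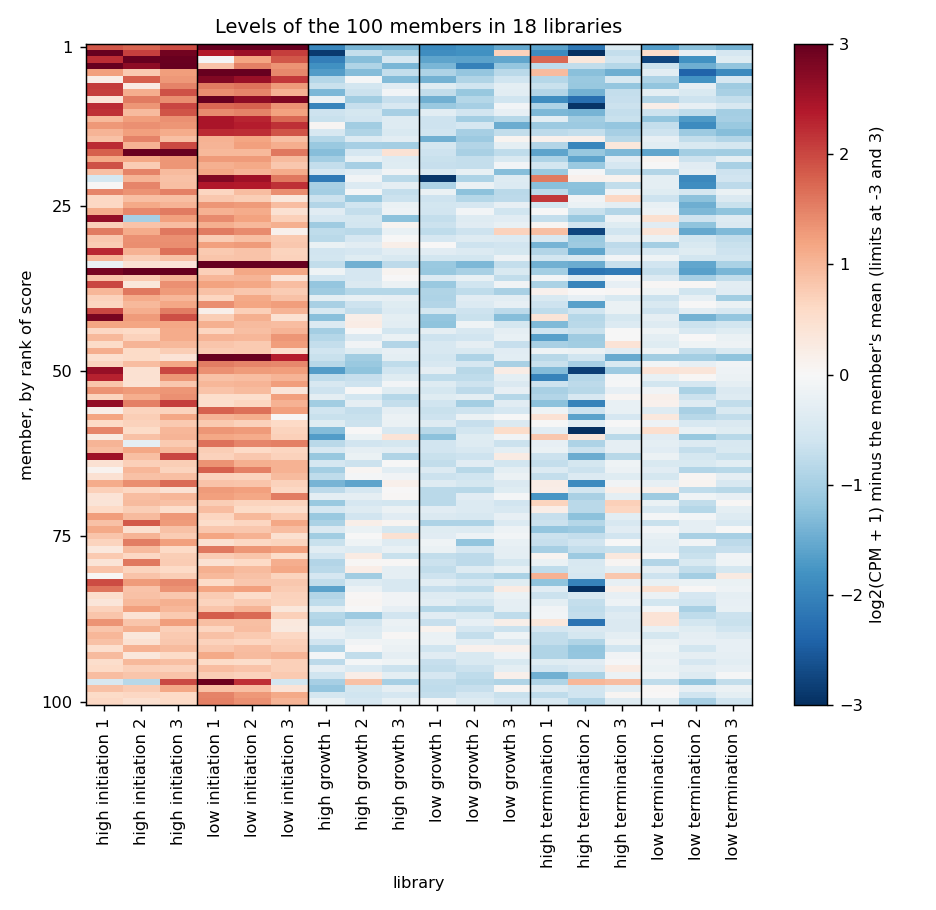
Each row is 1 of the 100 genes, ordered by score from the top, and each column is a library; colour gives log2(CPM + 1) minus the gene's mean over all 18 libraries, limited to −3 and 3. The 6 initiation columns are mostly red and the other 12 mostly blue or pale, with dark blue cells in high termination replicate 2 and single red cells in high termination replicate 1.

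ENSGALG00000003821 had the highest score, 3.29. High initiation libraries held 70.7, 65.0 and 75.1 CPM, and low initiation libraries 444, 368 and 342 CPM. High growth gave 4.07, 6.56 and 6.66 CPM, low growth 4.22, 4.62 and 5.76 CPM, and low termination 5.24, 7.23 and 6.38 CPM. No later library came near the initiation libraries. At the other end of the list, ENSGALG00000012635 entered with a score of 0.8674. Its initiation means were 14.6 ± 0.822 CPM (high strength) and 25.3 ± 4.56 CPM (low strength), against 7.57 ± 0.940, 7.39 ± 1.52 and 5.95 ± 1.68 CPM in high growth, low growth and low termination (SD, n = 3). ENSGALG00000016584 was the first locus left out, at a score of 0.8665, with initiation means of 3.77 and 2.62 CPM and later means of 0.984, 0.904 and 0.723 CPM.

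ENSGALG00000011708 was the most abundant member and was named after its values were seen. High initiation gave 2479, 1461 and 2053 CPM, and low initiation 1846, 1910 and 1366 CPM. Later levels spread widely: high growth held 267, 715 and 577 CPM, low growth 501, 476 and 960 CPM, and low termination 1130, 822 and 724 CPM. Its lowest initiation library was thus not far above its highest later one. The least abundant member at initiation, ENSGALG00000027139, also named after its values were seen, ranged from 1.43 to 1.95 CPM with high strength and from 1.35 to 1.64 CPM with low strength in that period. It had no counts in 6 of the 12 later libraries and reached at most 0.392 CPM in the others. In each library 3 counts correspond to 0.186 to 0.225 CPM, so most of its later values lie at a level that depth cannot resolve.

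Together the 100 genes took 0.785% to 1.10% of all counts in the initiation libraries. Their share was 0.193% to 0.327% in the growth libraries and 0.269% to 0.360% in low termination. Without ENSGALG00000011708 the shares were 0.639% to 0.854%, 0.166% to 0.231% and 0.186% to 0.247%. All 100 genes passed the filter for testing, more than 1 CPM in at least 3 libraries, and 3 of them passed only through the initiation libraries.

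The low termination level depended on how libraries were scaled. On the scale used to choose the genes, low termination stood at a median of 1.07 times low growth, within the limits that were set. Trimmed mean of M values (TMM) scaling, which corrects for a few abundant genes taking a large share of a library, gave low termination replicates 1, 2 and 3 factors of 0.905, 0.677 and 0.755, against 1.02 to 1.07 in low growth. On that scale the median ratio was 1.41, and 42 of the 100 genes exceeded 1.5. The edgeR fit with TMM factors called 10 genes higher in low termination than in low growth, beside 27.3% of all loci tested, and 0 lower, a direction not counted over all loci. It called 47 genes lower in low termination than in low initiation, beside 11.4% of all loci. The low termination libraries also had more GC in their reads, 50.6% to 53.1% against 49.7% to 50.2% in low growth, and its part in the ratio was not tested. All 100 genes were called lower in growth than at initiation, beside 28.6% of all loci. These contrasts were used by the rule, and nothing is read from their counts.

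The high termination libraries were held out of the score, and their levels in the chosen genes are described here. In 86 of the 100 genes all 3 high termination libraries lay below all 6 initiation libraries, beside 16.2% of all loci tested. Taken one at a time, replicate 1 lay below all initiation libraries in 88 genes, replicate 2 in 96 and replicate 3 in 93. Shares over all loci were not counted for single libraries, so nothing is read from these counts. The initiation side of this comparison was used to choose the genes. An excess over all loci was built in by that choice, and nothing is read from the 86 against the 16.2%. Together the genes took 0.303%, 0.167% and 0.318% of the counts in these libraries. Without ENSGALG00000011708 the shares ran from 0.161% to 0.239%.

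Against high initiation, 84 genes were lower in high termination and 0 were higher, beside 8.45% and 13.8% of all loci tested (edgeR, quasi-likelihood, with p adjusted by Benjamini-Hochberg and called below 0.05). The median log2 difference over the 100 genes was −1.50, beside 0.06 over all loci. The score had chosen the genes for high levels in the high initiation libraries, and 3 of them passed the filter only through initiation libraries, so nothing is read from the count or the median against those of all loci. The estimates and p-values of single genes in this comparison rest on the same chosen side and describe the chosen genes. ENSGALG00000005811 showed the largest fall. Its 3 high initiation libraries held 215, 278 and 253 CPM. Those of high termination held 13.9, 5.58 and 5.88 CPM, far below (edgeR adjusted p = 1.96e-06, estimate −4.68 on the log2 scale with SE 0.35). ENSGALG00000025887 fell from 661, 175 and 273 CPM to 15.1, 15.4 and 14.1 CPM (edgeR adjusted p = 2.3e-05, estimate −4.46 on the log2 scale with SE 0.47), and the estimate was −3.64 without high initiation replicate 1. Its high initiation libraries differed among themselves, while its high termination libraries lay close together. A fit to the 6 libraries of these groups alone called 16 of 99 genes, all of them lower, beside 459 of 15055 loci in either direction. ENSGALG00000005811 and ENSGALG00000025887 kept their calls in it.

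**Figure D2:**
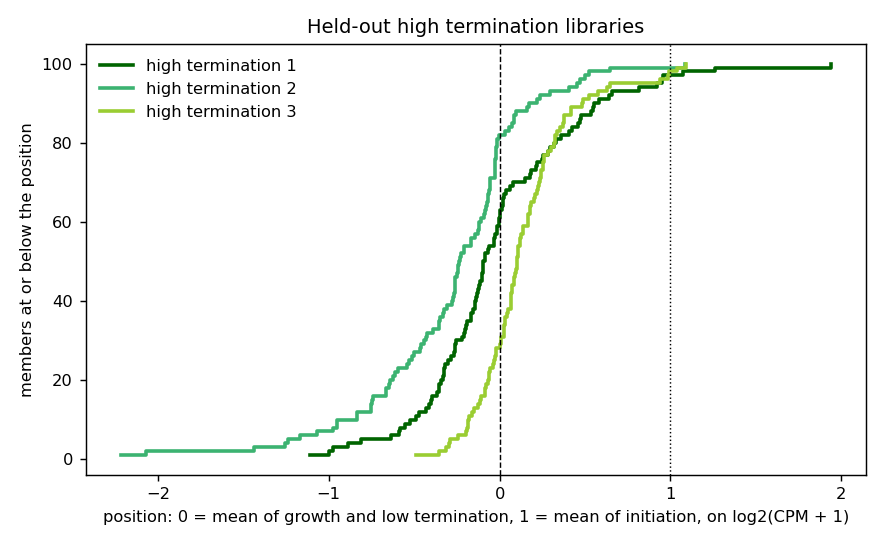
Each line accumulates the 100 genes by their position in 1 high termination library, where 0 is the mean of the 9 growth and low termination libraries and 1 is the mean of the 6 initiation libraries on the log2(CPM + 1) scale. The medians are −0.0924, −0.234 and 0.103 for replicates 1, 2 and 3, so the lines rise near 0, and few genes reach 1.

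The 3 high termination libraries differed from one another in these genes. On a scale with 0 at the mean of the 9 growth and low termination libraries and 1 at the mean of the initiation libraries, replicates 1, 2 and 3 had medians of −0.0924, −0.234 and 0.103 over the 100 genes. Replicate 2 was the lowest of the group in 60 genes, beside 26.0% of all loci, and replicate 3 was the highest in 64, beside 37.1%. Replicate 2 also gave the lowest level of all 18 libraries in 33 genes, beside 7.38% of all loci. In 12 genes its level was under 1/3 of both other libraries, beside 2.48% of all loci.

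Among those 12 were ENSGALG00000016797 and ENSGALG00000011708, both named after their values were seen. ENSGALG00000016797, with the score next to the highest, stood at 11.2, 0.565 and 26.5 CPM in high termination replicates 1, 2 and 3. Its other libraries also varied, from 5.16 to 26.8 CPM in high growth and from 11.5 to 72.8 CPM in low growth. ENSGALG00000011708 stood at 635, 61.4 and 904 CPM in high termination. Its difference from high initiation did not pass the test (edgeR adjusted p = 0.0794, estimate −1.63 on the log2 scale with SE 0.64).

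In 14 genes at least 1 high termination library reached the range of the initiation libraries. ENSGALG00000020554 was one of them. At initiation its high strength libraries held 46.5, 57.4 and 56.7 CPM and its low strength libraries 53.2, 50.8 and 38.4 CPM. All 9 growth and low termination libraries lay between 12.2 and 21.9 CPM, and the high termination libraries held 134, 28.0 and 46.9 CPM. Replicate 1 was the highest of all 18 libraries. High termination was 2.19 (SE 0.40) above high growth on the log2 scale (edgeR adjusted p = 0.00338), and 1.40 above it without replicate 1. It differed from high initiation by 0.57 (SE 0.38), which did not pass the test (edgeR adjusted p = 0.30).

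Between high growth and high termination only a small share of all loci passed the test. Nothing particular to the chosen genes is read from their count or median. Of the chosen genes, 4 were higher at termination and 1 was lower, beside 4.61% and 3.05% of all loci (edgeR quasi-likelihood test). Their median log2 difference was 0.11, beside 0.05 over all loci. The sign of this median was not stable: it was 0.35 without high termination replicate 2, −0.22 without replicate 3 of that group, and −0.10 with scaling to total counts, where the median over all loci was −0.12. The high growth mean was among the later means that the score required to be low, so that side of the comparison was chosen. ENSGALG00000005811 was the lower one, with 26.3, 20.1 and 30.9 CPM in growth and the 13.9, 5.58 and 5.88 CPM given above at termination (edgeR adjusted p = 0.00964, estimate −1.45 on the log2 scale with SE 0.31). Its groups did not overlap. Besides ENSGALG00000020554, ENSGALG00000007917 was higher, at 2.62, 4.52 and 4.30 CPM in high growth and 11.3, 3.45 and 11.7 CPM in high termination (edgeR adjusted p = 0.0380, estimate 1.44 on the log2 scale with SE 0.40). Replicate 2 of high termination fell within its growth range.

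The remaining genes called higher, ENSGALG00000000583 and ENSGALG00000003863, were named after their values were seen. ENSGALG00000000583 went from 25.9, 17.5 and 30.8 CPM in high growth to 77.8, 26.2 and 66.4 CPM in high termination, and its groups overlapped (edgeR adjusted p = 0.0429). ENSGALG00000003863 varied little within its groups, at 34.2, 39.7 and 39.8 CPM in high growth and 79.2, 72.8 and 73.8 CPM in high termination (edgeR adjusted p = 1.23e-04, estimate 1.18 on the log2 scale with SE 0.14). Its low termination libraries, at 65.8, 47.5 and 57.4 CPM, also lay above its low growth libraries, at 38.4, 42.3 and 36.8 CPM, a difference that the rule limited. Scaling to total counts gave 2 genes higher and 2 lower, beside 1136 calls over all loci. The count of 5, beside 1234 over all loci, was 3 without each of the 3 high growth libraries, beside 709 to 748. It was 3 without high termination replicate 1, 9 without replicate 2 and 8 without replicate 3, beside 1159, 2185 and 1194. A fit to the 6 libraries alone called 0 of 96, beside 1 of 14813 loci. Over 12 alternatives run for each gene, ENSGALG00000007917 and ENSGALG00000000583 each lost the call in 7. ENSGALG00000005811, ENSGALG00000020554 and ENSGALG00000003863 each lost it in 1.

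The design sets hard-shell hens against weak-shell hens in each period, and the score did not rank genes by the difference between the strength groups at initiation. It took the lower of both initiation means, however, so a gene low in either group was less likely to be chosen, and the counts that follow describe the chosen genes. The mean level was within 2-fold between the strength groups for 79 of the 100 genes. It was more than 2-fold higher in high initiation for 8 and in low initiation for 13. Shares over all loci were not counted for these fold limits. With high strength the test called 6 genes higher and 8 lower, beside 3.04% and 4.93% of all loci, and the median log2 difference was 0.13, beside 0.00 over all loci (edgeR quasi-likelihood test). The 14 calls, beside 1284 over all loci, became 9 without high initiation replicate 1, beside 813. They became 7 without high initiation replicate 3, low initiation replicate 1 or low initiation replicate 2, beside 689, 456 and 558. A fit to the 6 initiation libraries alone called 22, beside 2181 of 15238 loci.

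Among the called genes that were lower with high strength, ENSGALG00000014505 differed most. Its high initiation libraries held 17.8, 27.5 and 26.2 CPM and its low initiation libraries held 426, 353 and 299.9 CPM. In the other 12 libraries it lay between 6.15 and 13.1 CPM. On the log2 scale high strength lay 3.84 below low strength (estimate −3.84, SE 0.34, edgeR adjusted p = 8.06e-06). ENSGALG00000003821, described above, was the next of these, with an estimate of −2.38 and SE 0.40 (edgeR adjusted p = 0.00175). For both genes the strength groups did not overlap at initiation, and both groups lay above all later libraries.

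In the other direction, the high initiation libraries of ENSGALG00000025887 held 661, 175 and 273 CPM and its low initiation libraries 48.9, 77.1 and 68.7 CPM (edgeR adjusted p = 0.00146, estimate 2.60 on the log2 scale with SE 0.43). Without high initiation replicate 1, the library at 661 CPM, the estimate was 1.81. ENSGALG00000005811 held 215, 278 and 253 CPM against 48.1, 65.9 and 65.8 CPM (edgeR adjusted p = 6.41e-04, estimate 2.10 on the log2 scale with SE 0.31). All high strength libraries lay above all low strength ones for both genes. These 4 genes kept their calls in all 12 alternatives run for each of them. The initiation libraries also differed in base quality: 91.6% to 91.7% of bases in the first mate reached quality 30 in high initiation and 94.3% to 95.2% in low initiation. The part of base quality in these differences was not tested.

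**Figure D3:**
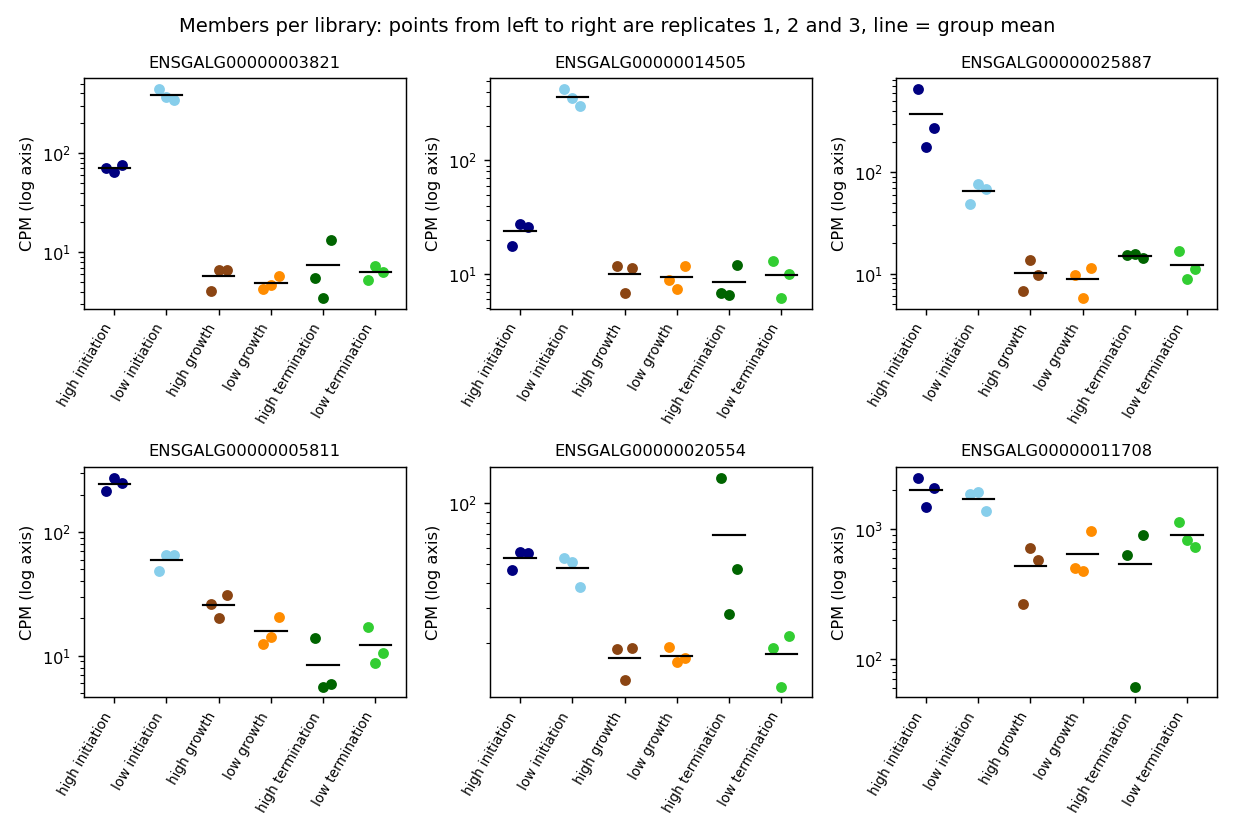
Points are single libraries in CPM on a log axis, with replicates 1, 2 and 3 from left to right in each of the 6 groups, and lines are group means (n = 3). ENSGALG00000003821 and ENSGALG00000014505 peak in low initiation, ENSGALG00000025887 and ENSGALG00000005811 in high initiation, ENSGALG00000020554 has high termination replicate 1 at 134 CPM, and ENSGALG00000011708 has high termination replicate 2 at 61.4 CPM.

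In growth the test told the strength groups apart at only 1 of all 16110 loci, and nothing particular to these genes is read from their count. The test called 0 of the 100, beside 0.00621% of all loci, 1 gene had an unadjusted edgeR p below 0.05, and DESeq2 also called 0. The log2 differences ran from −1.06 to 1.10 with a median of 0.03, and the median lay between −0.07 and 0.08 without 1 library. Both growth means had entered the score. In ENSGALG00000014505, for example, high growth gave 11.7, 6.85 and 11.2 CPM and low growth 8.87, 7.36 and 11.9 CPM (estimate 0.06 on the log2 scale with SE 0.31, edgeR adjusted p = 1). A missed threshold does not show that levels were the same. The strength difference at initiation differed from that in growth for 5 of the 100 genes, beside 1.91% of all loci (edgeR quasi-likelihood test of that difference), and these 5 are given in the closing section. Levels of both periods had entered the score.

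At termination most estimates lay below 0, but few genes passed. The log2 difference, high minus low strength, was below 0 for 75 of the 100 genes with a median of −0.35, while the median over all loci was 0.00. The share of all loci below 0 was not counted, so nothing is read from the 75. The median was −0.17 without high termination replicate 2 and −0.67 without replicate 3 of that group. The low termination mean had entered the choice of genes, and the high termination libraries had not entered the score. The test called 1 gene higher and 3 lower, beside 12.2% and 1.92% of all loci (edgeR quasi-likelihood test). With scaling to total counts the median over all loci moved to 0.26 and that of the 100 genes to −0.12. On that scale 2 genes were called higher and 3 lower, beside 3279 calls over all loci. The count of 4 rested on single libraries, and so did the 2280 calls over all loci. Without high termination replicate 3 the count was 44 (3 higher and 41 lower), beside 9224 of 16070 loci. It was 1 without replicate 2 of that group, beside 15 loci. It was 0 without replicate 1 of that group and without low termination replicate 2 or 3, beside 2 loci in each case. A fit to the 6 termination libraries alone called 0 of 97, and 0 of all 14664 loci.

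**Figure D4:**
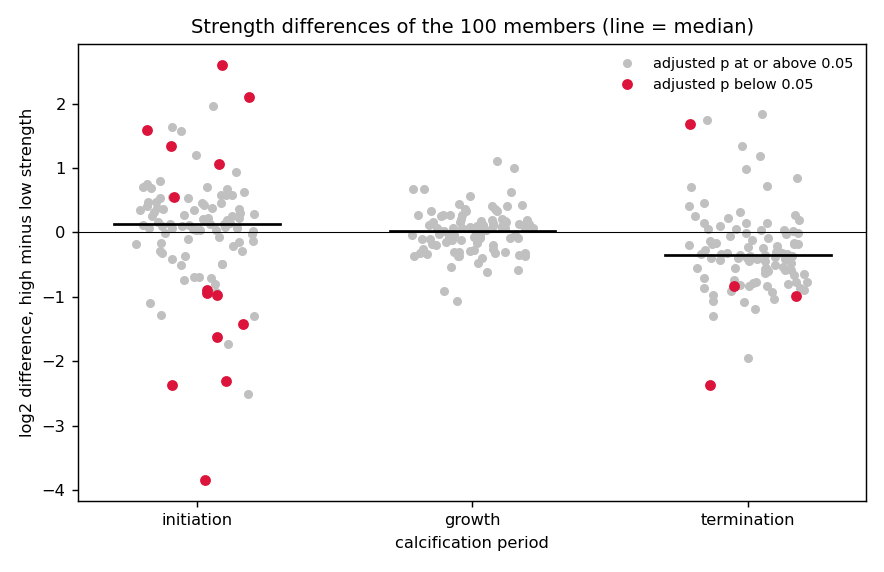
Each point is the log2 difference, high minus low strength, of 1 of the 100 genes in a period; red points have an edgeR adjusted p below 0.05 and the line is the median. The points spread from −3.84 to 2.60 at initiation with 14 red, from −1.06 to 1.10 in growth with 0 red, and from −2.38 to 1.84 at termination with 4 red and a median of −0.35.

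Of the genes called at termination, ENSGALG00000017308 lay furthest below. Its high strength libraries stood at 3.27, 0.502 and 3.98 CPM and its low strength libraries at 13.0, 12.6 and 8.53 CPM (edgeR adjusted p = 0.0322, estimate −2.38 on the log2 scale with SE 0.65). The estimate was −2.98 without high termination replicate 3. It was −1.87 without high termination replicate 2, where the call was lost (edgeR adjusted p = 0.112). ENSGALG00000008931 held 10.4, 11.0 and 19.2 CPM against 23.3, 20.4 and 24.6 CPM (edgeR adjusted p = 0.0347, estimate −0.99 on the log2 scale with SE 0.28). ENSGALG00000026622, named after its values were seen, held 17.3, 13.6 and 20.4 CPM against 26.7, 23.9 and 26.3 CPM (edgeR adjusted p = 0.0310, estimate −0.84 on the log2 scale). In these 3 genes the strength groups did not overlap. ENSGALG00000020554 was the gene called higher, its 134, 28.0 and 46.9 CPM standing against 19.0, 12.2 and 21.9 CPM with low strength (edgeR adjusted p = 0.0271, estimate 1.69 on the log2 scale with SE 0.39). Without high termination replicate 1 its estimate was 0.91 (edgeR adjusted p = 0.125). All 4 calls were lost without high termination replicate 1 and without low termination replicate 2 or 3. Each of these fits called only 2 loci over all loci tested. Without high termination replicate 2 the 3 lower genes also lost their calls, in a fit that called 15 loci.

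The median spread between libraries was larger in these genes than over all loci in some groups and not in others. The median SD of log2(CPM + 1) between libraries was 0.29 over the 100 genes in high initiation, beside 0.19 over all loci tested, 0.34 beside 0.24 in high growth and 0.26 beside 0.19 in low growth. It was 0.19 beside 0.25 in low initiation, 0.30 beside 0.30 in low termination and 0.43 beside 0.50 in high termination. The rule had used the libraries of 5 of these groups, and loci were not matched by level. Nothing is therefore read from these medians. ENSGALG00000003700, named after its values were seen, was an uneven member, with 2.18, 1.51 and 16.6 CPM in the high and 33.1, 19.2 and 2.03 CPM in the low strength libraries at initiation. Its initiation libraries overlapped its high growth libraries, at 1.24, 7.15 and 1.25 CPM. In 92 genes all 9 growth and low termination libraries lay below all 6 initiation libraries, beside 7.44% of all loci, a separation that the rule used.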

How the data were processed

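Per the labels' protocols, RNA came from hen uterus and was made into TruSeq libraries. A table with counts of 18 libraries at each locus was deposited, with a table of read statistics in which the authors list counts of clean reads and, as percent of bases, quality 30 and GC; values of the first mate were used. The name of the gene table says normalized, yet all values were whole numbers and totals differed, so they were used as counts; scaling by factors near 1 and rounding would not be seen. Build galGal4 and the aligners TopHat, TopHat2 and Bowtie2 are listed, without versions, in the submitters' processing notes. Counting tool, strand setting and annotation release: not given in the sources used here. Paralogs, overlapping and antisense genes are therefore uncertain. The RefSeq gene table of assembly GRCg7b gave no Ensembl identifiers, so no gene was named, no gene or marker list was read and no sequence is shown.

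Loci above 1 CPM in at least 3 libraries, 16110 in all, were tested with edgeR 4.0.16 (R 4.3.3), quasi-likelihood, with TMM factors and a mean for each of 6 groups. Two-sided p-values were adjusted within a comparison (Benjamini-Hochberg, all loci) and called below 0.05. Each standard error (SE) was the log2 estimate over the root of F. The script was tested on simulated data. The comparisons share libraries with one another. Alternatives were DESeq2 1.42.0, no filter, other scalings, the replicate number as a block, fits to 2 groups and leaving out libraries. Identifiers named were the 2 largest called rises and falls per comparison and both ends of the score; others are marked. The members and lists were chosen with earlier results of these data known. Counting floors of 3 counts cover counting error only. Python 3.11.15 and pandas 2.3.3 were used.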

Additional observations from a re-analysis of the deposited data

Results flagged for a closer look

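For 5 genes the strength difference at initiation differed from that in growth (edgeR quasi-likelihood test of the difference between them, Benjamini-Hochberg adjusted over all loci), beside 1.91% of all loci tested. The difference, high minus low strength at initiation less the same in growth on the log2 scale, was −3.91 in ENSGALG00000014505 (edgeR adjusted p = 3.31e-04), −2.58 in ENSGALG00000003821 (edgeR adjusted p = 0.0294), −2.20 in ENSGALG00000007849 (edgeR adjusted p = 0.00264) and −1.11 in ENSGALG00000000681 (edgeR adjusted p = 0.0323). It was 2.47 in ENSGALG00000025887 (edgeR adjusted p = 0.0427). ENSGALG00000007849 held 66.8, 69.8 and 62.4 CPM in high initiation and 435, 370 and 242 CPM in low initiation, and 21.9 to 37.6 CPM in the 6 growth libraries. ENSGALG00000000681 held 45.1, 52.2 and 47.8 CPM against 106, 105 and 82.7 CPM, and 10.4 to 15.4 CPM in growth. The 5 genes were flagged because the difference between the strength groups was not the same in both periods. This test was run in the main fit alone, so no alternative shows whether the 5 calls hold. Initiation and growth levels had both entered the score.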

How the results depend on the processing

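The choice of genes depended on scaling: 48 of the 100 were also chosen with TMM-scaled CPM. With 0.5 or 5 CPM added in place of 1, 92 and 79 were shared, and leaving out 1 library left 80 to 96. All 3 high termination libraries lay below initiation in 86 genes, in 82 with TMM scaling and in 86 to 91 without 1 of them (alternatives chosen after seeing the data). Leaving out 1 of these libraries could not lower the count. Shares over all loci were not counted for these alternatives, so nothing is read from their counts. The 14 genes called between strength groups at initiation were 22 in the fit to the 2 groups alone, and 7 to 11 without 1 library. Over all loci the 1284 calls were 2181 and 456 to 1193. The 4 called at termination were 9 with DESeq2, 0 in the fit to the 2 groups and 0 to 44 without 1 library. The 2280 calls over all loci were 3861, 0 and 2 to 9224. Against high initiation, the 84 called in high termination were 16 in the fit to the 2 groups and 60 to 90 without 1 library. The 60, without high termination replicate 2, were 59 lower and 1 higher. Over all loci the 3586 calls were 459 and 1995 to 8336. Against high growth, the 5 were 9 with DESeq2, 0 in the fit to the 2 groups and 3 to 9 without 1 library. The 1234 calls over all loci were 2146, 1 and 709 to 2185. In growth 0 genes were called in every alternative run, beside 0 to 11 of all loci. Same-numbered libraries did not deviate together in every pair (correlations of deviations from group means from −0.374 to 0.553 across genes), so the numbers were not taken as pairs. With the replicate block the counts at initiation, in growth, at termination, against high initiation and against high growth were 11, 0, 5, 82 and 5. The calls over all loci with that block were 1262, 0, 2023, 3268 and 1119 in the same order. Of 180 alternatives for single named genes, 144 kept the call, 36 lost it and 0 reversed; the cause of these changes was not tested. With 3 libraries a group and 3 counts at 0.186 to 0.225 CPM, differences of the least abundant genes were not resolved.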
